A study of Mus musculus with 16 samples.

Results

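The genes described here are 51 genes of DNA replication and mitosis, measured in P19 cells that received a let-7a mimic, an siRNA against Sfpq, both or neither. They were taken by name, and each was matched to the probes of the array through its gene name, an older synonym or the transcript accession. All 51 had a probe, in 71 probes and 80 spots, out of 19570 genes that could be tested. Of these, 28 act in S phase and 23 in mitosis. The single probe of Ccne2, a cyclin of S-phase entry, was not well above background on any of the 16 arrays, so that 27 S-phase genes and 23 mitotic genes were tested.

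A cell copies its DNA once per cycle and then divides the copies. Before S phase the origin recognition complex, Cdc6 and Cdt1 load the Mcm helicase onto origins, and cyclin E and the E2F factors drive the start of replication, for which polymerases, the sliding clamp and enzymes of nucleotide supply are needed. Mitosis needs cyclin B and Cdk1, the Aurora and Polo kinases, the kinetochore, which ties chromosomes to the spindle, and the spindle checkpoint, which holds back the anaphase-promoting complex (APC/C). Transcription of S-phase genes is driven largely by E2F, and that of mitotic genes by the MuvB, B-Myb and FoxM1 factors, which act through an element called CHR and often through CCAAT boxes. let-7 is a microRNA family that is low in stem cells, rises in differentiation and represses several genes of the cell cycle.

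P19 is a mouse embryonal carcinoma line, so that all 4 conditions share 1 line. The conditions were control, let-7a (a mimic of the microRNA), siSfpq (an siRNA against the mRNA of Sfpq, an RNA-binding protein of the nucleus) and let-7a + siSfpq, with 4 arrays each. In the methods, mimics and siRNAs were used at 24 nM and cells were collected 48 h after transfection. Controls are not named in the labels beyond "control". Within a condition, the log2 differences between arrays 1 and 2 had a median absolute deviation (scaled to match an SD) between 0.0836 and 0.107, against 0.0829 between repeated spots of a probe and 0.168 or more between other arrays. The SD of this difference was larger, between 0.177 and 0.291, against 0.131 for repeated spots and 0.288 or more for other arrays, and was highest in siSfpq. Arrays 1 and 2 of every condition were on slide 1, and arrays 3 and 4 on slide 2. Arrays 1 and 2 were averaged to 1 sample, "replicates 1 and 2", which left 3 samples per condition. With 16 arrays counted separately, 24 members in place of 4 were called for let-7a and 27 in place of 7 for siSfpq. The share of all genes called lower with let-7a was then 8.59% in place of 1.86%. With siSfpq, 16.9% in place of 5.73% were called higher, and 17.7% in place of 6.75% lower. The methods speak of replicate transfections, but neither they nor the labels say which arrays belong to which transfection, so that p-values measure the spread between these samples.

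The methods name 3 replicates, while 4 arrays per condition were deposited. In all 4 conditions replicate 3 had the highest mean level over the S-phase genes. Sfpq mRNA fell by 1.13 on the log2 scale with siSfpq (standard error 0.19, limma adjusted p = 0.00829), by 1.51 in replicates 1 and 2 and by 1.37 in replicate 4, but its change was -0.51 in replicate 3. Results of the members are given with and without replicate 3, and those of other genes and of markers with it. Of the 10 markers of embryonal carcinoma that were tested, 3 fell with let-7a (Nanog, Lin28a and Utf1), 2 rose (Fgf4 and Utf1) and 1 fell (Sox2) with siSfpq, and 1 fell with both (Lin28a). Pou5f1, the defining factor of this state, had a mean log2 level of 14.62 in control and between 14.47 and 14.69 in the other conditions. Of 16 neuronal markers, 12 rose with let-7a and 10 fell with siSfpq. For all genes, 4.49% rose and 1.86% fell with let-7a, 5.73% rose and 6.75% fell with siSfpq, and 1.33% were called with both. Of 59305 spots on an array, 33733 to 38464 were well above background. The median number was 35990.5 for control, 37659.5 for let-7a, 34394 for siSfpq and 36829 for both. The number of arrays limits the precision. In bulk RNA, fewer cells in a phase and less RNA per cell cannot be told apart.

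The agent that was added is shown first, since its seed is the part that pairs with targets. The mature mouse let-7a-5p from RefSeq (GRCm38.p6) is printed with its seed, bases 2 to 8, in capitals.

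let-7a-5p: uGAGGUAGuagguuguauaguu

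Promoters of 5 genes are shown because the shares of windows with these elements differed between the S-phase and the mitotic list. RefSeq promoter windows, from 250 bases before to 50 after the start, were found for 42 of the 51 genes, in 46 windows. The E2F motif was searched as TTTCCCGC, TTTGGCGC, TTTCGCGC or TTTGCCGC, the CHR motif as TTTGAA or TTCGAA and the CCAAT box as CCAAT, each on both strands. An E2F motif was in 10 of 27 windows of S-phase genes (37.0%), in 1 of 19 windows of mitotic genes (5.26%) and in 2.26% of all 32851 windows. A CHR motif was in 5 windows of S-phase genes (18.5%), in 13 of mitotic genes (68.4%) and in 19.2% of all. A CCAAT box was in 55.6% and 78.9% of the windows of the 2 lists and in 37.4% of all. A match is a description of the letters and not a site, and no binding was measured here.

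The 150 bases before the start are printed 5′ to 3′ on the strand of the gene. In the S-phase genes Mcm6, a subunit of the replicative helicase (chr1:128359706-128359855, minus strand), and Rfc3, a subunit of the clamp loader (chr5:151651209-151651358, minus strand), capitals mark E2F motifs. Mcm6 carried 3 of them, from positions -110, -106 and -47, of which the first 2 overlap. The 2 CCAAT boxes of Mcm6 stand in lower case here. The window of Rfc3 also held 1 CHR motif and 1 CCAAT box, both outside the bases printed.

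Mcm6: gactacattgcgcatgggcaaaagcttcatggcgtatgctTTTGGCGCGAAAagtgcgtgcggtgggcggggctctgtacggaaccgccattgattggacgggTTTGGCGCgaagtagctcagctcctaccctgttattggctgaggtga

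Rfc3: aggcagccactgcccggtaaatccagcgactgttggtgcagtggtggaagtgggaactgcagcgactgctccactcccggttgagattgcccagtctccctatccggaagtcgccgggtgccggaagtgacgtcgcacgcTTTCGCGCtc

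In the mitotic genes Cdk1, the kinase of mitotic entry (chr10:69352913-69353062, minus strand), Cdc20, the activator of the APC/C (chr4:118437344-118437493, minus strand), and Ccnb1, cyclin B1 (chr13:100786487-100786636, minus strand), capitals mark CHR motifs and CCAAT boxes only. Cdk1 is also the 1 mitotic gene with an E2F motif, which stands in lower case here. Ccnb1 had 2 CCAAT boxes, from positions -99 and -67, and no CHR motif of these letters in this window.

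Cdk1: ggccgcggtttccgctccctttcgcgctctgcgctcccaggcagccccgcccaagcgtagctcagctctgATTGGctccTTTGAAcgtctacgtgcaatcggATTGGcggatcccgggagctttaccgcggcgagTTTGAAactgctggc

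Cdc20: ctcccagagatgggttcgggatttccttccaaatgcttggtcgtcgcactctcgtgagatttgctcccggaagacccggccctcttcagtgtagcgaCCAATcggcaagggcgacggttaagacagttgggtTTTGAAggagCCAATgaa

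Ccnb1: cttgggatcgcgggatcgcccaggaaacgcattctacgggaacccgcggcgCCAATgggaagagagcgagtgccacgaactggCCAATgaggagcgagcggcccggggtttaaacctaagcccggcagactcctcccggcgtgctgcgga

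With let-7a, levels of both lists were lower than in control. The median log2 change was -0.23 over the 27 S-phase genes and -0.43 over the 23 mitotic genes, against -0.04 over all genes. Lower means were seen for 25 of 27 S-phase genes and for 23 of 23 mitotic genes, where 56.6% of all genes had one. A gene was called at a limma adjusted p under 0.05 over all genes. By this rule 4 S-phase genes fell (Mcm10, Cdt1, Rrm2 and Ccne1) and no mitotic gene did, against 1.86% of all genes called lower and 4.49% called higher. At an unadjusted p under 0.05 there were 11 S-phase and 12 mitotic genes, and 3888 of all 19570 genes. The S-phase count was 1 without the filter on dim probes or without the intensity trend and 2 with 75th percentile scaling or a stricter filter. In a fit of control and let-7a alone, 3 S-phase and 8 mitotic genes were called lower, against 2.52% of all genes. All 3 let-7a samples lay below all 3 control samples for 11 S-phase and 14 mitotic genes, where this held for 14.1% of all genes.

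The called S-phase genes belong to different steps. Ccne1, cyclin E1, had log2 levels of 8.15, 8.15 and 8.25 in the control samples (replicates 1 and 2, replicate 3, replicate 4, in this order from here on) and of 7.34, 7.83 and 7.30 in let-7a, with no overlap. It fell by 0.70 (standard error 0.15, limma adjusted p = 0.0207). Its levels in siSfpq were 8.11, 8.12 and 7.94, and in let-7a + siSfpq they were 7.98, 7.80 and 7.85, between let-7a and control on average. Cdt1, which loads the helicase, fell by 0.48 (standard error 0.11, limma adjusted p = 0.0304), from 14.68, 14.45 and 14.76 in control to 14.22, 14.12 and 14.11 in let-7a.

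Mcm10, which helps to activate the helicase, was the gene of the helicase group with the largest change. Its log2 levels were 11.44, 11.78 and 11.57 in control and 10.86, 11.32 and 11.01 in let-7a, against 12.08, 11.91 and 12.26 for siSfpq and 11.47, 11.52 and 11.70 for both agents. The let-7a samples lay below and the siSfpq samples above all control samples, and the samples with both overlapped control. Mcm10 fell by 0.54 with let-7a (standard error 0.14, limma adjusted p = 0.0467). The other 9 genes of the group, which are Mcm2 to Mcm7, Cdc45, Gins1 and Gins2, had changes between -0.08 (Mcm7) and -0.53 (Gins1) with let-7a.

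Rrm2, the regulated subunit of ribonucleotide reductase, which makes deoxynucleotides, had levels of 11.48, 11.62 and 11.58 in control and of 10.92, 11.22 and 10.92 in let-7a. It fell by 0.54 (standard error 0.14, limma adjusted p = 0.0481). In siSfpq its levels were 11.06, 11.58 and 11.07, and in let-7a + siSfpq 11.05, 11.20 and 11.10, so that only replicate 3 of siSfpq lay within the range of control. Its partner subunit Rrm1 had a change of 0.11 with let-7a. Tyms, thymidylate synthase, and Tk1, thymidine kinase, had changes of -0.49 and -0.46.

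Cdc6, which loads the helicase together with Cdt1, had the most negative change with let-7a among all 50 genes, but its samples were spread. Its levels were 8.66, 9.20 and 8.81 in control and 7.73, 8.58 and 7.91 in let-7a, with no overlap. In siSfpq they were 8.45, 9.41 and 8.50, and in let-7a + siSfpq 8.41, 8.99 and 8.55, and both ranges overlapped control. The change with let-7a was -0.82 (standard error 0.29, limma adjusted p = 0.138). With the replicate number as a block it was called (limma adjusted p = 0.00102). The 2 probes of Cdc6 had the same sign with let-7a and opposite signs with siSfpq (-0.44 and 0.22), and for Pole, a polymerase of the leading strand, 1 of 3 probes had the opposite sign with siSfpq.

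**Figure D1:**
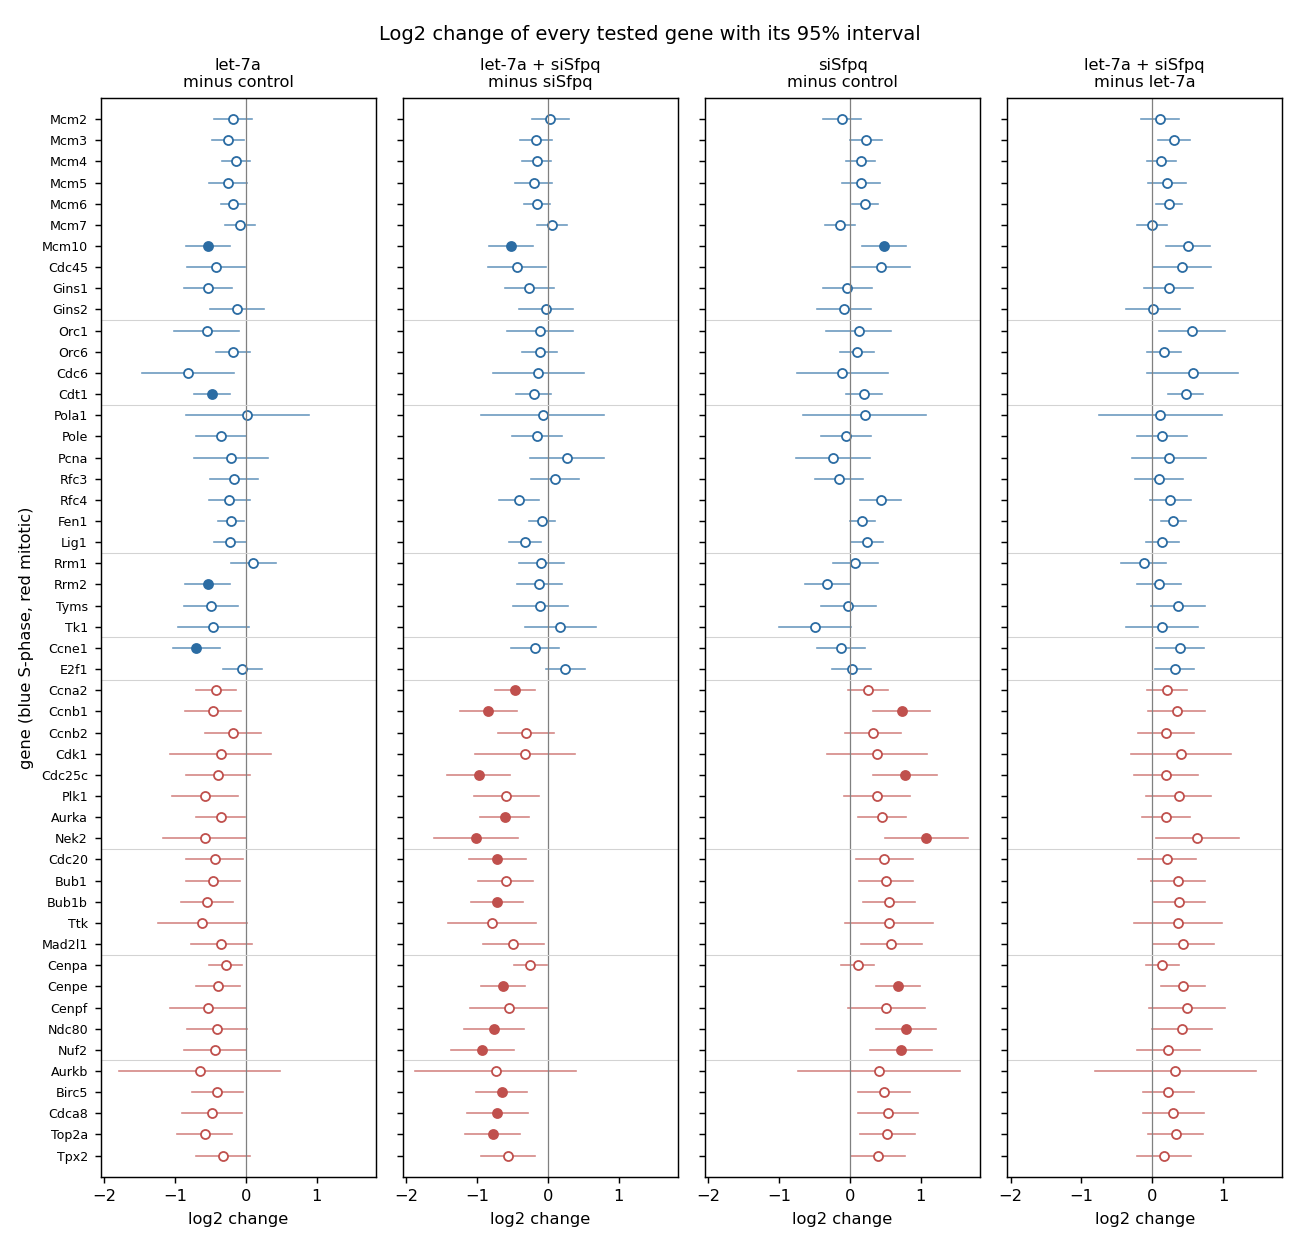
Log2 change (x axis) of each of the 50 tested genes (y axis, ordered by role, with grey lines between roles) in 4 comparisons, each from 3 samples against 3. Points are limma estimates, lines are 95% intervals and filled points were called at an adjusted p under 0.05. All 23 mitotic genes lie left of 0 in both let-7a panels and right of 0 in both siSfpq panels, while S-phase genes lie on both sides of 0 with siSfpq.

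The mitotic genes had changes with let-7a between -0.18 (Ccnb2, a cyclin of mitosis) and -0.65 (Aurkb), and all 23 were lower in each of the 3 replicates. By role, the medians were -0.41 for cyclins and kinases of mitotic entry, -0.46 for the spindle checkpoint and APC/C, -0.40 for centromere and kinetochore and -0.48 for the passenger complex, chromosome and spindle genes. The S-phase roles differed more, with medians of -0.51 for the 4 licensing genes, -0.48 for nucleotide supply, -0.22 for the helicase and -0.21 for polymerases, clamp and Okazaki fragments. The 2 remaining S-phase genes, the G1/S regulators Ccne1 and E2f1, had changes of -0.70 and -0.05. E2f1, the factor that activates many S-phase genes, was thus close to its control level.

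Replicate numbers paired the samples, as the deviations of same-numbered samples from their condition means correlated in every pair of conditions. Same-numbered samples also shared a slide, and the part of the slide in these correlations was not tested. With the replicate number as a block, 14 S-phase and 6 mitotic genes were called lower with let-7a, against 9.99% of all genes. The 6 mitotic genes were Ccna2, Bub1, Bub1b, Ttk, Cenpf and Top2a. Without replicate 3, which left 2 samples per condition, 16 S-phase and 20 mitotic genes were called lower, against 13.2% of all genes, with medians of -0.26 and -0.47. Without replicate 4, or without replicates 1 and 2, no member was called in any of the 6 comparisons. For let-7a, 3 and 5 S-phase genes and 1 and 2 mitotic genes then had an unadjusted p under 0.05. This held for 7.94% and 8.22% of all genes. The mitotic median was -0.43 and -0.42 in the same order.

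With siSfpq, the mitotic genes were higher than in control and the S-phase genes were mixed. The median log2 change was 0.51 over the mitotic genes, all 23 of them positive, and 0.08 over the S-phase genes, of which 15 were positive and 12 negative, against 0.01 over all genes. Scaling to the 75th percentile turned the small negative changes of Mcm2, Mcm7 and Gins1 positive. By limma, 6 mitotic genes rose, namely Ccnb1, Cdc25c, Nek2, Cenpe, Ndc80 and Nuf2, and 1 S-phase gene, Mcm10, rose by 0.48 (standard error 0.14, limma adjusted p = 0.0474). This compares with 5.73% of all genes called higher and 6.75% called lower. With 75th percentile scaling 13 mitotic genes were called higher, against 7.36% of all genes, and without the filter on dim probes 1 was, against 2.02%. Mcm10 was not called with the authors' values, without that filter or without the intensity trend. All siSfpq samples lay above all control samples for 11 mitotic and 7 S-phase genes, where this held for 15.1% of all genes.

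Nek2, a kinase of the centrosome, had the largest rise. Its log2 levels were 10.11, 10.17 and 10.15 in control, 11.67, 10.39 and 11.59 in siSfpq, 9.52, 9.76 and 9.41 in let-7a and 10.34, 10.06 and 10.20 in let-7a + siSfpq. Both let-7a and siSfpq samples lay outside the narrow range of control, on opposite sides, and the samples with both lay around it. The rise with siSfpq was 1.08 (standard error 0.27, limma adjusted p = 0.0276), a 2.11-fold increase, and it was small in replicate 3.

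Ccnb1 rose by 0.73 (standard error 0.18, limma adjusted p = 0.0283), from a mean of 10.80 ± 0.0877 (SD, n = 3) and a highest sample of 10.87 in control to 11.86, 11.04 and 11.69 in siSfpq. Cdc25c, the phosphatase that activates Cdk1, rose by 0.78 (standard error 0.21, limma adjusted p = 0.033), from 8.22, 8.49 and 8.06 to 9.32, 8.53 and 9.25. In both genes replicate 3 of siSfpq lay just above the highest control sample and the other samples lay well above it. The 3 probes of Ccnb1 had the same sign in this comparison, with changes between 0.39 and 0.92.

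The 3 called genes of the kinetochore were Ndc80 and Nuf2, which form 1 complex that grips microtubules, and Cenpe, a motor. Ndc80 had levels of 9.45, 9.86 and 9.48 in control, 10.59, 10.12 and 10.43 in siSfpq, 9.08, 9.52 and 8.97 in let-7a and 9.59, 9.88 and 9.37 in let-7a + siSfpq. It rose by 0.79 with siSfpq (standard error 0.19, limma adjusted p = 0.0263), without overlap, while the let-7a samples overlapped control. Nuf2 rose by 0.72 (standard error 0.20, limma adjusted p = 0.0395) and Cenpe by 0.68 (standard error 0.14, limma adjusted p = 0.0162). Cenpa, the histone variant of the centromere, had a change of only 0.11.

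**Figure D2:**
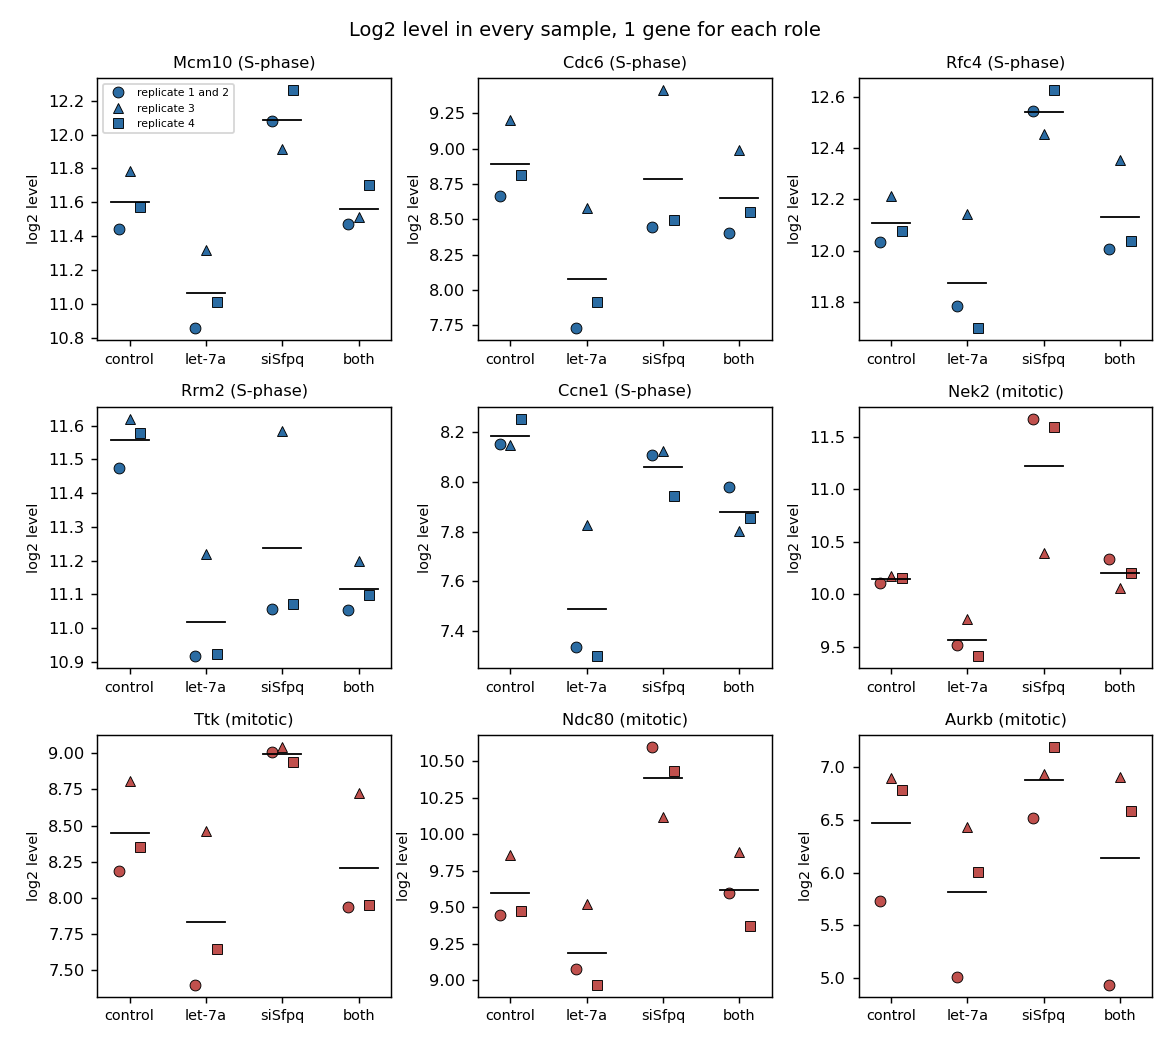
Log2 level (y axis) of the gene with the largest change with let-7a or siSfpq in each of the 9 roles, in the 3 samples of each condition (x axis). Points are samples, with the shape giving the replicate number, and lines are condition means. In Nek2 the siSfpq samples of replicates 1 and 2 (11.67) and 4 (11.59) lie far above that of replicate 3 (10.39).

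Of the spindle checkpoint genes, Ttk, a kinase of the checkpoint, had levels of 8.19, 8.81 and 8.35 in control, 9.01, 9.04 and 8.94 in siSfpq, 7.40, 8.46 and 7.65 in let-7a and 7.94, 8.73 and 7.95 in let-7a + siSfpq. Its siSfpq samples were close to each other and above control, and its other conditions each held a higher replicate 3. The change with siSfpq was 0.55 (standard error 0.29, limma adjusted p = 0.226), and with the replicate block the limma adjusted p was 0.0266. The other 4 genes of this role, Cdc20, Bub1, Bub1b and Mad2l1, had changes between 0.48 and 0.58.

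Aurkb, the kinase of the chromosomal passenger complex, was the least precise. Its levels were 5.73, 6.90 and 6.78 in control, 5.01, 6.44 and 6.01 in let-7a, 6.52, 6.93 and 7.19 in siSfpq and 4.94, 6.91 and 6.59 in let-7a + siSfpq, with replicates 1 and 2 lowest in each condition. Its change was -0.65 with let-7a (standard error 0.52, limma adjusted p = 0.57) and 0.41 with siSfpq (standard error 0.52, limma adjusted p = 0.658). Its partners Birc5 (survivin) and Cdca8 (borealin) had changes of 0.48 and 0.53 with siSfpq.

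Among S-phase genes with siSfpq, Rfc4, a subunit of the clamp loader, came closest to the called genes. Its levels were 12.03, 12.21 and 12.08 in control, 12.54, 12.46 and 12.62 in siSfpq, 11.79, 12.14 and 11.70 in let-7a and 12.01, 12.35 and 12.04 in let-7a + siSfpq. The siSfpq samples lay above all others, and the change was 0.43 (standard error 0.13, limma adjusted p = 0.0517). Rfc4 was called with the replicate block (limma adjusted p = 0.0122). On the other side, Tk1 had a change of -0.50 and Rrm2 of -0.32. The medians by role were 0.15 for the helicase, 0.11 for licensing, 0.17 for polymerases, clamp and Okazaki fragments and -0.17 for nucleotide supply.

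The difference of the mitotic genes with siSfpq was uneven over replicates. Their mean log2 change was 0.81 in replicates 1 and 2 and 0.73 in replicate 4, but 0.06 in replicate 3, where Sfpq itself had the smallest change. The mean of the S-phase genes was 0.06, 0.06 and 0.03 in the same order. Without replicate 3, the median of the mitotic genes was 0.72 and 21 of them were called higher, together with 11 S-phase genes, against 22.4% of all genes, and 3 S-phase genes, Pcna, Rfc3 and Rrm2, were called lower, against 24.1%. With the replicate block, 18 mitotic and 7 S-phase genes were called higher, against 17.8%, and 2 S-phase genes, Rrm2 and Tk1, lower, against 19.0%. In a fit of control and siSfpq alone, no gene was called by limma, and 3 S-phase and 14 mitotic genes had an unadjusted p under 0.05, as had 24.9% of all genes. The number of spots well above background was lowest of all arrays in siSfpq replicates 1, 2 and 4 (34540, 34248 and 33733) and was 36485 in siSfpq replicate 3. The part of this in the result was not tested.

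**Figure D3:**
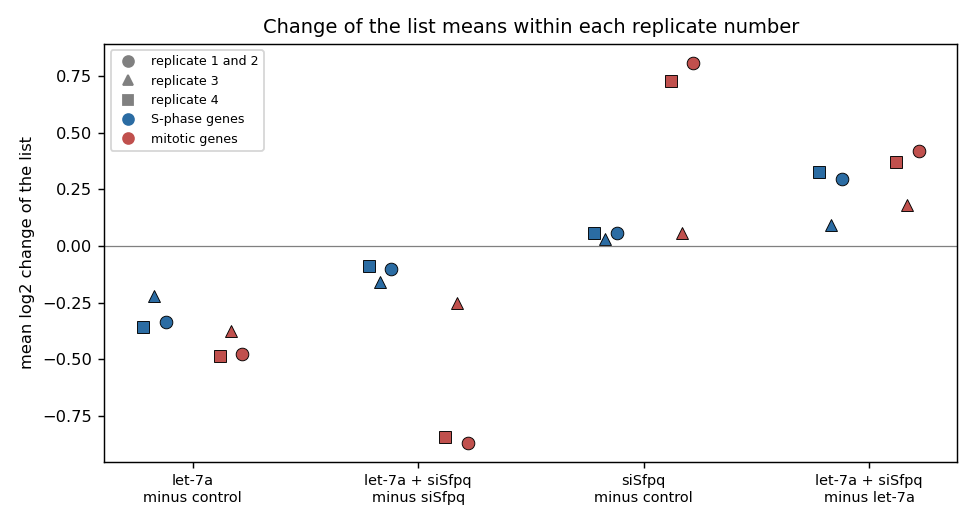
Mean log2 change (y axis) of the 27 S-phase genes (blue) and the 23 mitotic genes (red) within each replicate number, in 4 comparisons (x axis). The mitotic mean with siSfpq is 0.81 and 0.73 in replicates 1 and 2 and in replicate 4, and 0.06 in replicate 3.

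When siSfpq was added to let-7a, both lists were higher than with let-7a alone. The median log2 change of let-7a + siSfpq against let-7a was 0.23 over the S-phase genes, with 25 of 27 positive, and 0.33 over the mitotic genes, with 23 of 23 positive, against 0.03 over all genes. No member was called by limma, against 2.81% of all genes, and 9 S-phase and 5 mitotic genes had an unadjusted p under 0.05, as had 3067 of all 19570 genes. Sfpq itself was not called in this comparison (-0.57, limma adjusted p = 0.156) or with both against control (-0.61, limma adjusted p = 0.198). Samples did not overlap, with let-7a + siSfpq above, for 6 S-phase and 9 mitotic genes, where this held for 10.8% of all genes. The largest changes were 0.64 for Nek2, 0.57 for Cdc6 and 0.56 for Orc1, the largest subunit of the origin recognition complex. With the replicate block, 8 S-phase genes and the mitotic genes Bub1 and Mad2l1 were called higher, against 5.56% of all genes. Without replicate 3, 15 S-phase and 17 mitotic genes were called higher, against 12.4%.

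When let-7a was added to siSfpq, levels of the mitotic genes were lower than with siSfpq alone, and those of the S-phase genes were close to it. The median change of let-7a + siSfpq against siSfpq was -0.65 over the mitotic genes, all 23 negative, and -0.12 over the S-phase genes, of which 21 were negative, against -0.02 over all genes. By limma, 13 mitotic genes fell, and of the S-phase genes only Mcm10 did, by 0.52 (standard error 0.14, limma adjusted p = 0.044), against 3.64% of all genes called lower and 5.53% called higher. The largest falls were those of Nek2 (1.02, standard error 0.27, limma adjusted p = 0.0402), Cdc25c and Nuf2. Cdc25c fell by 0.98 (standard error 0.21, limma adjusted p = 0.0193) and Nuf2 fell by 0.93 (standard error 0.20, limma adjusted p = 0.0218). The other 10 were Ccna2, Ccnb1, Aurka, Cdc20, Bub1b, Cenpe, Ndc80, Birc5, Cdca8 and Top2a. Samples with both lay below all siSfpq samples for 18 mitotic and 6 S-phase genes, where this held for 12.3% of all genes. In a fit of these conditions alone no member was called by limma, with 4 S-phase and 18 mitotic genes and 19.8% of all genes at an unadjusted p under 0.05. Without the filter on dim probes 3 mitotic genes and no S-phase gene were called lower, against 0.992% of all genes. With 75th percentile scaling 15 mitotic and 2 S-phase genes fell, against 5.62% of all genes called lower and 5.68% higher.

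In this comparison too the replicates differed, with a mean mitotic change of -0.87 (replicates 1 and 2), -0.25 (replicate 3) and -0.84 (replicate 4). Sfpq mRNA was not equal on both sides, as its change was 0.53 between let-7a + siSfpq and siSfpq (standard error 0.19, limma adjusted p = 0.105), and 0.76, 0.03 and 0.79 in the replicates in the same order. The part of this difference in the result was not tested. With the replicate block, 20 mitotic and 5 S-phase genes were called lower, against 15.4% of all genes. Without replicate 3, 21 mitotic and 7 S-phase genes were called lower, against 20.9%, and the S-phase genes Pcna and E2f1 were called higher, against 23.6%.

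With both, the lists lay near control. The median change of let-7a + siSfpq against control was -0.04 over the S-phase genes and -0.16 over the mitotic genes, against -0.02 over all genes. Of the S-phase genes 19 of 27 were negative and of the mitotic genes 17 of 23, as were 53.2% of all genes. No member was called by limma, against 1.33% of all genes. At an unadjusted p under 0.05 there was 1 S-phase gene, Rrm2, and no mitotic gene, against 11.2% of all genes. The largest changes were -0.44 for Rrm2, -0.33 for Aurkb and -0.32 for Tk1. With the replicate block Rrm2 was called lower, against 2.55% of all genes. Without replicate 3, Rrm2 was called lower, against 7.01%, and E2f1 higher, against 9.45%.

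Set side by side, S-phase and mitotic genes parted in siSfpq. As the mean over a list of each gene's log2 level minus its control mean, the S-phase genes were at -0.30 ± 0.20 (SD, n = 3) in let-7a, 0.05 ± 0.11 in siSfpq and -0.07 ± 0.07 with both. The mitotic genes were at -0.44 ± 0.23, 0.53 ± 0.25 and -0.12 ± 0.10. The mitotic mean minus the S-phase mean of a sample was between -0.18 and -0.11 in let-7a, and in siSfpq it was 0.71, 0.07 and 0.67. In the control samples it was between -0.04 and 0.04, and with both between -0.08 and -0.02. The means of the 2 lists were thus farthest apart in siSfpq replicates 1 and 2 and replicate 4. No test was run on these means, since the genes were chosen with results of these data known.

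**Figure D4:**
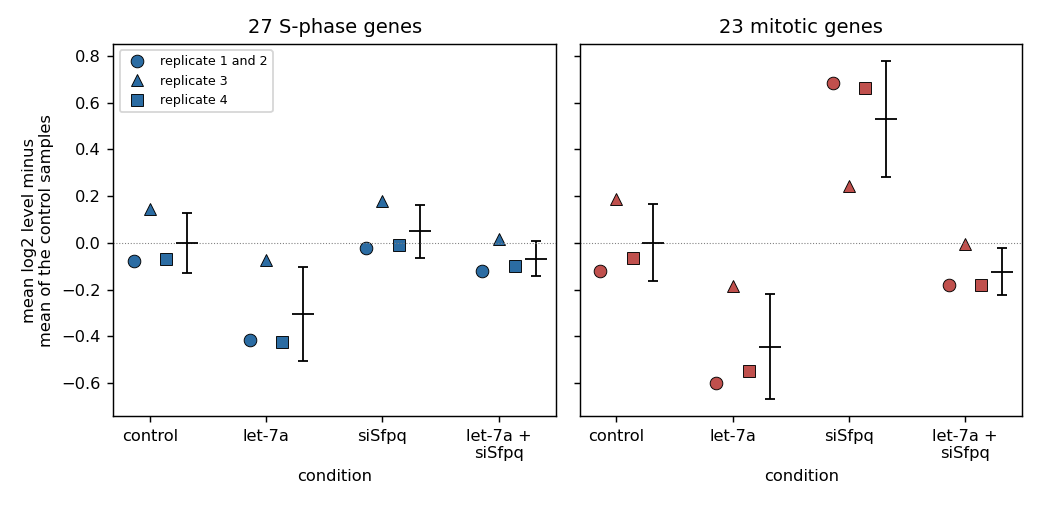
Mean over the list of the log2 level minus the control mean (y axis) in each sample of the 4 conditions (x axis), for S-phase genes (left) and mitotic genes (right), with mean and SD of 3 samples as bars. The mitotic genes reach 0.68 and 0.66 in siSfpq replicates 1 and 2 and replicate 4 and 0.25 in replicate 3, while the S-phase genes stay between -0.02 and 0.18.

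The let-7a change without siSfpq and that with siSfpq share no samples, and neither do the siSfpq changes without and with let-7a. All 23 mitotic genes were lower with let-7a in both comparisons and higher with siSfpq in both. Of the 27 S-phase genes, 19 were lower with let-7a in both, and 14 were higher with siSfpq in both. The siSfpq change without let-7a and the let-7a change with siSfpq, however, use the same siSfpq samples, with opposite signs. The interaction, which is the let-7a change with siSfpq minus that without it, had medians of 0.14 over the S-phase genes and -0.19 over the mitotic genes. It was positive for 21 of 27 S-phase genes and negative for 21 of 23 mitotic genes, where 52.0% of all genes were positive.

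No gene was called for the interaction by limma (0.0% of all genes), while 1174 genes in all had an unadjusted p under 0.05, of which 1 was an S-phase gene and none mitotic. The largest interactions were 0.68 for Cdc6 (standard error 0.42), 0.63 for Tk1 (standard error 0.32) and -0.59 for Cdc25c (standard error 0.29). With the replicate block no member was called by limma either. In that fit 8 S-phase genes and no mitotic gene had an unadjusted p under 0.05, as had 16.6% of all genes. Without replicate 3, 8 S-phase genes were called, all positive (Orc1, Cdc6, Cdt1, Pcna, Rfc3, Rrm2, Ccne1 and E2f1), against 11.0% of all genes called higher, and 11 mitotic genes, all negative, against 9.1% called lower. The mitotic mean of the interaction was -0.39 in replicates 1 and 2 and -0.36 in replicate 4, but 0.12 in replicate 3.

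Other genes of these pathways were counted beside the members. Of 51 other mitosis genes, 4 fell and none rose with let-7a, 11 rose and none fell with siSfpq, and 17 fell and none rose when let-7a was added to siSfpq, with medians of -0.38, 0.44 and -0.50. As in the members, their median with siSfpq was small in replicate 3 (0.05) and larger in replicates 1 and 2 (0.64) and 4 (0.63). The rises with siSfpq and the falls when let-7a was added to siSfpq rest on the same siSfpq samples. The shares of all genes called in these directions were 1.86%, 5.73% and 3.64%. Among the called genes, the largest changes were -0.89 for Espl1 (separase), 0.93 for Cdca5 and -1.0 for Knl1. Of 35 other replication genes, 1 fell with let-7a (Pold1, -0.35), 3 rose with siSfpq (Dbf4 0.66, Orc2 0.64 and Timeless 0.37) and 5 fell when let-7a was added to siSfpq, and the counts for let-7a and siSfpq were near those shares of all genes.

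Among 29 brakes and transcription factors of the cycle, 7 rose and 1 fell with let-7a, against 4.49% and 1.86% of all genes, and 6 rose and 1 fell with siSfpq, against 5.73% and 6.75%. Mybl2, which encodes the B-Myb factor of mitotic genes, rose by 1.76 with siSfpq (standard error 0.42, limma adjusted p = 0.0248). Its change was 1.44 with both (limma adjusted p = 0.156, and 0.0273 with the replicate block) and 0.52 with let-7a (limma adjusted p = 0.577). Cdkn1a, the inhibitor p21, rose by 1.13 with siSfpq and by 1.84 with both, and its change with let-7a was 0.98 without overlap (limma adjusted p = 0.0879, and 0.0085 with the replicate block). Btg2, an antiproliferative gene, rose by 1.38 with let-7a and fell by 0.95 with siSfpq. E2f3, an activating E2F factor, fell by 0.53 with let-7a.

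Neuronal markers are given as markers of another cell type that these cells can form. The mean of the 16 markers, as log2 level minus control mean, was between 0.99 and 1.64 in the let-7a samples, between -1.02 and -0.93 in siSfpq, between 0.00 and 0.15 with both and between -0.38 and 0.21 in control. In the comparison with control they changed by -1.14, -0.64 and -1.17 with siSfpq in the 3 replicates, where the mitotic mean changed by 0.81, 0.06 and 0.73. All 16 passed the filter on dim probes, while Zfp42, a marker of the embryonal state, and Sox17, Afp and Mixl1, markers of endoderm and mesoderm, did not. With siSfpq, the 4 tested endoderm markers were higher in all 3 replicates (median 0.73, none called), as were the 3 tested mesoderm markers (median 1.07), of which T (brachyury) rose by 1.91. With let-7a, T fell by 2.29, while the changes of the other mesoderm markers were 1.22 (Mesp1) and -0.32 (Eomes), and the median of the endoderm markers was 0.48. The 4 fibroblast markers had medians of 0.75 with let-7a, where Col1a2 rose by 0.71, and of -0.44 with siSfpq, where none was called. The part of these marker lists in the changes of S-phase and mitotic genes was not tested.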

How the data were processed

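Total RNA of P19 cells was hybridised in 1 colour (Cy3) to 16 Agilent arrays, 4 per condition. The deposited scanner files (Agilent Feature Extraction 10.7.3.1) hold the processed signal intensity of each spot, which the software had background-subtracted. A deposited table of log2 values, quantile normalized with limma per the methods, served as an alternative.

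Here log2 processed signals were quantile normalized across arrays, spots flagged as outliers were left out and spots of a probe were averaged. Probes were kept where 1 or more conditions had them well above background on every array, 42 probes with no value were dropped, and probes of a gene were averaged. Of 55681 probes, 28026 were named by RefSeq accession, 3418 by symbol, 295 by synonym and 7748 by the name in the file, while 16194 that name only a region were left out. Arrays 1 and 2 of a condition were averaged into 1 sample. All 4 conditions entered 1 limma fit (limma 3.58.1, R 4.3.3) with an intensity trend, two-sided, and Benjamini-Hochberg adjusted p-values over 19570 genes. Figures and summaries used Python 3.11.15. The fit of all 4 conditions without a block was tested on simulated data, for let-7a against control only. Simulated samples were drawn independently of each other, and the fits with a block were not tested in this way.

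Same-numbered samples deviated together from their condition means (r between 0.29 and 0.71 over genes), so the replicate number was also used as a block. With 3 samples against 3, an exact permutation test of a single gene cannot go below 0.1. Named genes were the called members, the member with the largest change in each role, and the 3 largest changes in the other comparisons. The members and lists were chosen with earlier results of these data known.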

Additional observations from a re-analysis of the deposited data

Results flagged for a closer look

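In 3 S-phase genes, every sample moved one way under a treatment alone and the opposite way in the presence of the other treatment. Pcna, the sliding clamp, had a log2 change of -0.20 with let-7a alone and of 0.27 when let-7a was added to siSfpq. Rrm1, the large subunit of ribonucleotide reductase, had changes of 0.11 and -0.092 in the same comparisons. Tk1, thymidine kinase, had a change of -0.50 with siSfpq alone and of 0.14 when siSfpq was added to let-7a. In replicate 3 some of these changes were close to 0, with -0.03 for Pcna and 0.0089 for Rrm1 with let-7a alone and 0.0044 for Tk1 with siSfpq added to let-7a. The interaction was not called for any of them (limma adjusted p of 0.894 for Pcna, 0.952 for Rrm1 and 0.857 for Tk1). Without replicate 3 it was called for Pcna (0.68, limma adjusted p = 0.00566) and not for Rrm1 (adjusted p = 0.298) or Tk1 (adjusted p = 0.115).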

How the results depend on the processing

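Single genes were followed for let-7a (50 members), siSfpq (50) and the 14 called for both against siSfpq, not for the other comparisons. Of their 1596 values (114 results under 14 alternatives), 1586 kept their direction, 117 lost their call and 158 gained one. For siSfpq, Mcm2 (0.052), Mcm7 (0.012) and Gins1 (0.0087) turned positive with 75th percentile scaling, and Pole with normexp (0.0030), the stricter filter (0.081) and the brightest probe (0.035). Leaving out 1 replicate at a time gave between -0.13 and 0.016 for Gins1, -0.055 and 0.032 for Tyms and -0.013 and 0.042 for E2f1 with siSfpq, and between -0.0042 and 0.036 for Pola1 with let-7a. The cause of these turns was not tested.

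With the replicate block, 20 members were called for let-7a, 27 for siSfpq, 1 for both against control, 10 for both against let-7a and 25 for both against siSfpq, and 4095, 7205, 1465, 2405 and 6352 of all genes, with 4 for the interaction. With 16 arrays counted separately, these were 24, 27, 1, 12 and 25 members and 3653, 6767, 1405, 2593 and 6074 genes, with 158 for the interaction. With 75th percentile scaling, 2 members were called for let-7a (1.68% of all genes called lower), 15 for siSfpq (7.36% higher) and 1 for both against let-7a (0.726% higher), and the S-phase medians were -0.31 for let-7a and -0.20 for both against siSfpq. Without a filter on dim probes, 1 member was called for let-7a (0.955% of all genes lower), 1 for siSfpq and 3 for both against siSfpq, and 1310 genes were called for siSfpq, 166 for both against control, 262 for both against let-7a, 848 for both against siSfpq and 4 for the interaction. The stricter filter gave 2 members for let-7a (1.88% of all genes lower). Without the intensity trend there were 1 for let-7a (1.54% lower) and 8 for both against siSfpq (2.73% lower). With only the conditions compared in the fit, there were 11 members for let-7a (2.52% lower), 0 for siSfpq (0 genes) and 0 for both against siSfpq (198 genes). The slide block, normexp, the authors' values and the brightest probe each called 1 member for both against let-7a (between 0.843% and 1.04% of all genes higher). Slide 1 holds only replicates 1 and 2, and so 1 sample per condition. Within slide 1, the S-phase median was 0.14 for siSfpq and the mitotic median -0.058 for both against control.

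Leaving out 1 replicate at a time gave between 0 and 36 members for let-7a, 0 and 35 for siSfpq, 0 and 2 for both against control, 0 and 32 for both against let-7a, 0 and 30 for both against siSfpq and 0 and 19 for the interaction. Over all genes the ranges were 2 to 5538, 0 to 9302, 0 to 3293, 0 to 4896, 0 to 8910 and 0 to 4031 in the same order, and the highest count was that without replicate 3 each time. The S-phase median for both against siSfpq lay between -0.14 and -0.12. Signal over background limits Ccne2, which entered only without the filter on dim probes.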
